A study of Mus musculus with 12 samples.

Results

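Transcript levels of 10 genes of the fibroblast growth factor (FGF) and extracellular signal‐regulated kinase (ERK) pathway, *Dusp9*, *Dusp6*, *Spry2*, *Spry4*, *Spred1*, *Etv4*, *Etv5*, *Egr1*, *Fos* and *Fgf4*, were followed in 12 RNA‐seq libraries of differentiating mouse embryonic stem (ES) cells. The genes were taken by name, as ERK targets and feedback regulators, from the 24627 genes counted. *Dusp9* is X‐linked and the other 9 members are autosomal. The cells were J1 XY ES cells in which a tetracycline‐inducible TetO promoter drives *Xist* at its own locus on the single X chromosome, so that doxycycline (DOX) induces *Xist* and, where *Xist* is functional, silences that chromosome. In the Xist‐TetOP lines, each 1 clone, *Xist* was full length (FL), lacked its A repeat (ΔA) or lacked both its B and its C repeats (ΔB+C), and ΔB+C was edited from the FL line. All 6 groups were differentiated for 2 days by withdrawal of leukaemia inhibitory factor, either without DOX (noDOX) or with DOX at 1.5 μg/ml, and each group had 2 replicates, which the study describes as biological duplicates. The labels do not say whether they were separate cultures, so p‐values measure the spread between these samples. By the study's RNA FISH, only part of the cells given DOX had an *Xist*‐coated X chromosome, a larger part in ΔB+C than in FL. Differences with DOX are therefore averages over cells with and without *Xist*, and they were not adjusted for this share. The comparison sets the change of *Dusp9*, which lowers ERK signalling, beside that of the autosomal members when *Xist* was induced. *Dusp9* was not altered alone, since *Xist* acts on the whole X chromosome.

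In ES cells FGF4 is secreted by the cells themselves and signals through FGF receptors, RAS, RAF and MEK to ERK, which moves cells out of naive pluripotency. ERK activity switches on ETS factors (*Etv4*, *Etv5*) and immediate early genes (*Egr1*, *Fos*), and also its own inhibitors: the Sprouty and SPRED proteins act upstream, between receptor and RAF, whereas the dual‐specificity phosphatases DUSP6 and DUSP9 remove phosphates from ERK itself. *Dusp9* is best known in ES cells for its dose from the X chromosome, since XX cells with both X chromosomes active make more of it than XY cells and have lower ERK pathway output.

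*Dusp9* and *Dusp6* belong to 1 family of cytoplasmic ERK phosphatases, and the coding stretch around their catalytic signature is shown because it is what the X‐linked and the autosomal enzyme have in common. The capitals mark the 8 codons from the histidine through the catalytic cysteine to the arginine of the signature. Each stretch spans 90 bases, coding bases 1036 to 1125 for *Dusp9* and 841 to 930 for *Dusp6*, read from the GENCODE vM21 transcripts (mm10), 5′ to 3′ on the coding strand.
Dusp9: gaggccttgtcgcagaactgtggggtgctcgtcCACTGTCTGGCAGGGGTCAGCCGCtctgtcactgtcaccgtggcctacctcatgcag
Dusp6: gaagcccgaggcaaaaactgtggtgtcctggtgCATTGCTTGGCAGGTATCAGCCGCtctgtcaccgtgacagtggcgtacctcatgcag
The sequences agree at 68 of the 90 bases and at 19 of the 24 bases in capitals. Over their whole transcripts the longest run of bases shared by *Dusp9* and *Dusp6* was 17. Over 12 pairs of related genes that included the members other than *Fgf4* it lay between 11 and 23, shorter than a sequencing read. How reads with mismatches were assigned was not examined. In mm10 *Dusp9* lies at chrX:73639419-73643514 on the plus strand with 4 exons, and *Dusp6* at chr10:99263231-99267489 on the plus strand with 3 exons. Of the other members, *Spry2* lies on chromosome 14, *Spred1* on 2, *Etv4* on 11, *Etv5* on 16, *Fos* on 12, *Fgf4* on 7, and *Spry4* and *Egr1* on 18. No annotated gene shared exon bases with a member.

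Libraries held 31337490 to 41240470 counts, and the lowest count of any member in any library was 63, for *Fos*. Values are given as CPM, counts relative to library size after scaling by TMM factors of expressed autosomal genes. *Xist* lay between 2.48 and 8.27 CPM in the 6 noDOX libraries and between 570 and 1790 CPM in the 6 DOX libraries, as the labels state. The ES cell marker *Pou5f1* averaged 1314 to 1768 CPM and *Sox2* 359 to 566 CPM over the 6 groups. Libraries with the same replicate number deviated together in all 15 pairs of groups (Pearson r of the deviations across autosomal genes 0.40 to 0.82), so each test was run first without the replicate number and then with it as a blocking term (the block), and the blocked result is given where the call differed. A gene was called at an adjusted p below 0.05 in edgeR's quasi‐likelihood test over 13191 genes, those that reached 1 CPM in 6 or more libraries, and all 10 members were among these. A single library, ΔB+C DOX replicate 2, came from 100 ng of RNA by a low input method and the others from 1000 ng.

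**Figure D1:**
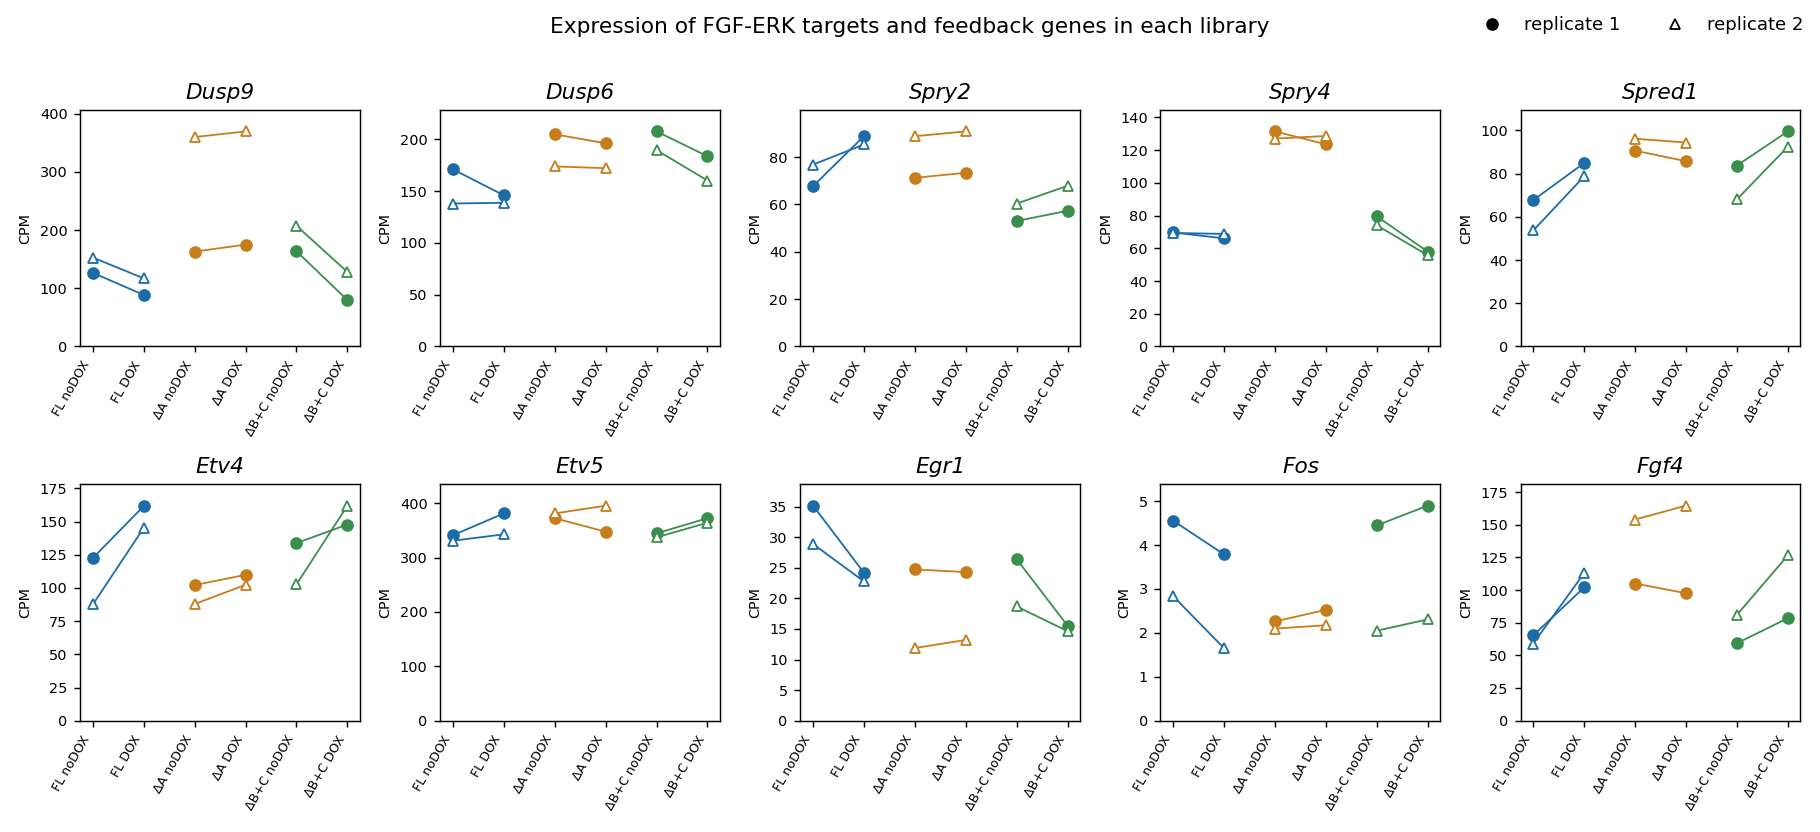
CPM (linear axis from 0) of each of the 10 members in the 12 libraries, by line and treatment; circles are replicate 1, triangles replicate 2, and lines join noDOX and DOX libraries of the same number. *Dusp9* is lower with DOX along both lines in FL and ΔB+C and stays level in ΔA, where its replicates lie far apart, at 163 and 359.9 CPM without DOX.

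Levels per kilobase of exon, averaged over the 12 libraries, ranked *Etv5* first with 90.3 CPM per kb, then *Dusp9* (65.3), *Dusp6* (62.0), *Etv4* (50.9), *Spry2* (35.2), *Fgf4* (33.2), *Spry4* (18.4), *Spred1* (12.2), *Egr1* (7.14) and *Fos* (1.41). Neighbours in this order overlapped in their ranges over the libraries, except *Egr1*, whose lowest value of 3.91 CPM per kb was above the highest of *Fos*, 2.32. *Dusp9* varied most, with a 4.63‐fold span from its lowest to its highest library. *Etv5* varied least, with a span of 1.19‐fold, and *Egr1*, *Fos* and *Fgf4* spanned 2.96‐fold, 2.96‐fold and 2.79‐fold.

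With *Xist* induced, *Dusp9* fell in ΔB+C only in the fit with the replicate block, and it was not called in FL in either fit (log2 −0.44). The autosomal members did not move as a group. Averaged over both lines, *Spred1* and *Etv4* rose and *Spry4* fell, and 5 of the 9 autosomal members had a positive difference. With the replicate block, *Fgf4* and *Spry2* also rose, and *Dusp9*, *Dusp6* and *Egr1* also fell, which left *Etv5* and *Fos* as the members not called. No member was called in ΔA in either fit.

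In numbers, without the block 0 of the 10 members were called in FL, where 1.24% of all tested genes were, 1 in ΔB+C (2.94% of all), 0 in ΔA (0.00758% of all) and 3 in the mean of FL and ΔB+C (11.1% of all). With the block they were 2 in FL (13.9% of all), 5 in ΔB+C (21.9%), 0 in ΔA (0.0227%) and 8 in the mean (35.9%). At an unadjusted p below 0.05 without the block, 3 members passed in FL, 2 in ΔB+C and 0 in ΔA, as did 1780, 2480 and 149 of the 13191 genes. DOX and noDOX libraries did not overlap for 8 members in FL, 7 in ΔB+C and 1, *Etv4*, in ΔA; over all tested genes this held for 48.2%, 43% and 23.5%. The median log2 difference of the 9 autosomal members was 0.11 in FL, 0.02 in ΔA and 0.14 in ΔB+C, beside medians over all tested genes of −0.01, 0 and −0.003.

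**Figure D2:**
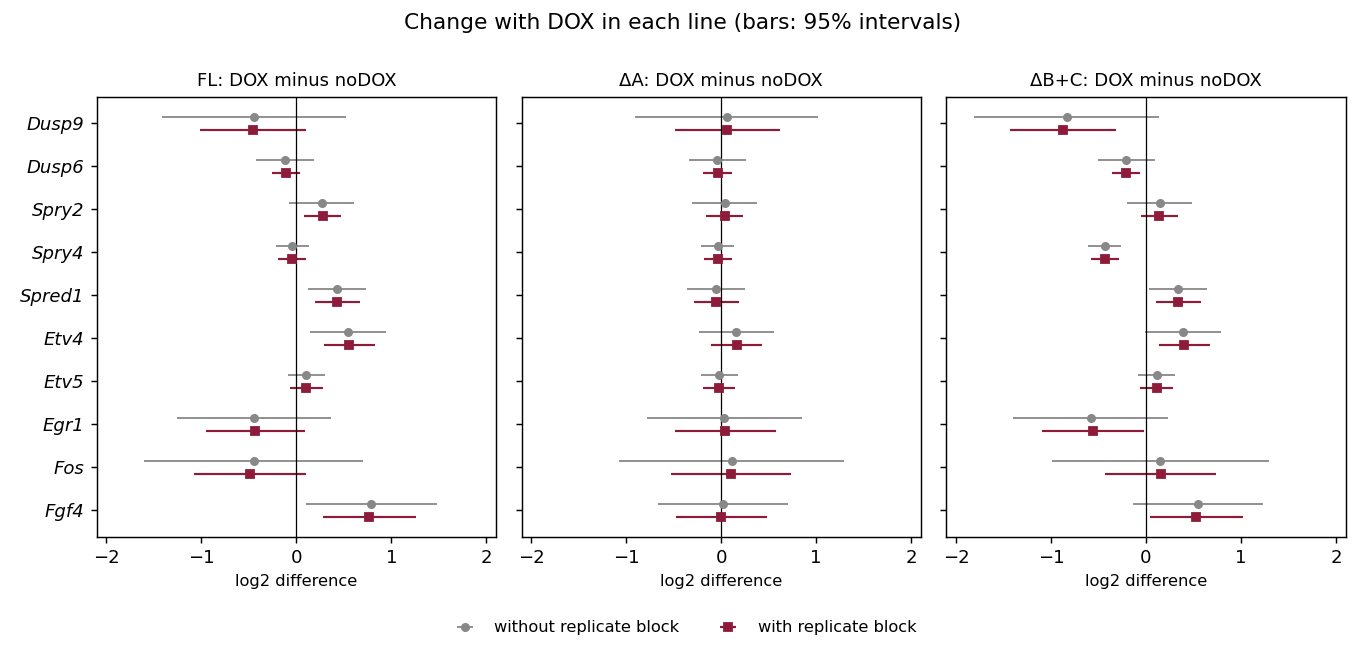
Log2 difference (DOX minus noDOX) of each member in FL, ΔA and ΔB+C, with 95% intervals, from the fit without (grey circles) and with (red squares) the replicate block. Estimates hardly differ between the fits while the intervals narrow with the block; *Dusp9* reaches −0.87 in ΔB+C and *Fgf4* 0.77 in FL, and ΔA stays near 0.

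*Dusp9*, the X‐linked phosphatase, had 127 and 153 CPM in FL noDOX replicates 1 and 2 and 88.5 and 117 CPM in the DOX replicates. In ΔB+C it had 164 and 207 CPM without DOX and 79.9 and 128 CPM with DOX, and in ΔA 163 and 359.9 CPM without DOX and 175 and 369.6 CPM with DOX. Both DOX libraries lay below both noDOX libraries in FL and in ΔB+C, and the groups overlapped in ΔA, whose replicate 2 libraries were the highest of all 12. The log2 (fold change) was −0.44 ± 0.43 (SE) in FL (edgeR adjusted p = 0.709), −0.84 ± 0.43 in ΔB+C (adjusted p = 0.343) and 0.06 ± 0.43 in ΔA (adjusted p = 1). With the replicate block the ΔB+C change passed (log2 −0.87 ± 0.24, edgeR adjusted p = 0.0408), as did the mean of FL and ΔB+C (−0.67 ± 0.17, adjusted p = 0.0207). The blocked ΔB+C call was lost on leaving out any 1 of the 4 ΔB+C libraries, with log2 values between −1.05 and −0.68 over all leave‐outs, and the blocked mean was called in 7 of 12 leave‐outs, with values from −0.78 to −0.55. In these bulk libraries fewer cells that express a gene and less RNA per cell cannot be told apart.

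Relative to its chromosome, *Dusp9* was by its estimate not among the strongly reduced genes in FL. The median log2 difference of the other 463 tested X‐linked genes was −0.85 in FL, −0.78 in ΔB+C and −0.14 in ΔA. In FL 375 of them (81%) lay below *Dusp9*, in ΔB+C 202 (43.6%) and in ΔA 396 (85.5%). The 95% interval of the *Dusp9* change in FL was −1.41 to 0.53 without the block and −1.02 to 0.10 with it. Both intervals include −0.85, so *Dusp9* was not set apart from the median X‐linked gene in FL. The response of *Dusp9* in ΔB+C minus that in FL was −0.39 (95% interval −1.76 to 0.98, edgeR adjusted p = 1), a value that 15 of the 463 genes (3.24%) undercut, whereas their median was 0.06.

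Several other X‐linked genes of the pathway were also reduced, as were X‐linked genes in general. In the mean of FL and ΔB+C the tested X‐linked genes other than *Dusp9* and *Xist* had a median of −0.815. In that mean 11.1% of all tested genes were called without the block and 35.9% with it. Of 10 such genes listed, 7 were tested, and in the mean of FL and ΔB+C 4 fell and none rose: *Rps6ka3* and *Rps6ka6*, which encode RSK kinases that ERK activates, *Fgf13*, which encodes an intracellular FGF‐family protein that is not a receptor ligand, and *Pak3*, a p21‐activated kinase gene. *Rps6ka6* went from 149.9 and 149 CPM to 78.4 and 73.0 CPM in FL (log2 −0.98 ± 0.17, edgeR adjusted p = 0.028) and from 152 and 144 CPM to 80.3 and 58.2 CPM in ΔB+C (−1.09 ± 0.17, adjusted p = 0.0135). *Fgf13* had 13.5 and 10.1 CPM in FL noDOX and 3.93 and 2.49 CPM with DOX, and its mean change was −1.59 ± 0.26 (adjusted p = 0.00752). With the block *Araf*, a RAF kinase gene, and *Elk1*, an ETS factor that ERK phosphorylates, were called lower in the mean too (log2 −0.18 and −0.38, edgeR adjusted p = 0.0308 and 0.0061). Of the 7 genes 1 had a positive mean difference, and it was not called in either fit. *Fgf13* was also the only 1 of the 7 called in ΔA, with the block alone (log2 −1.42, adjusted p = 0.0158).

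**Figure D3:**
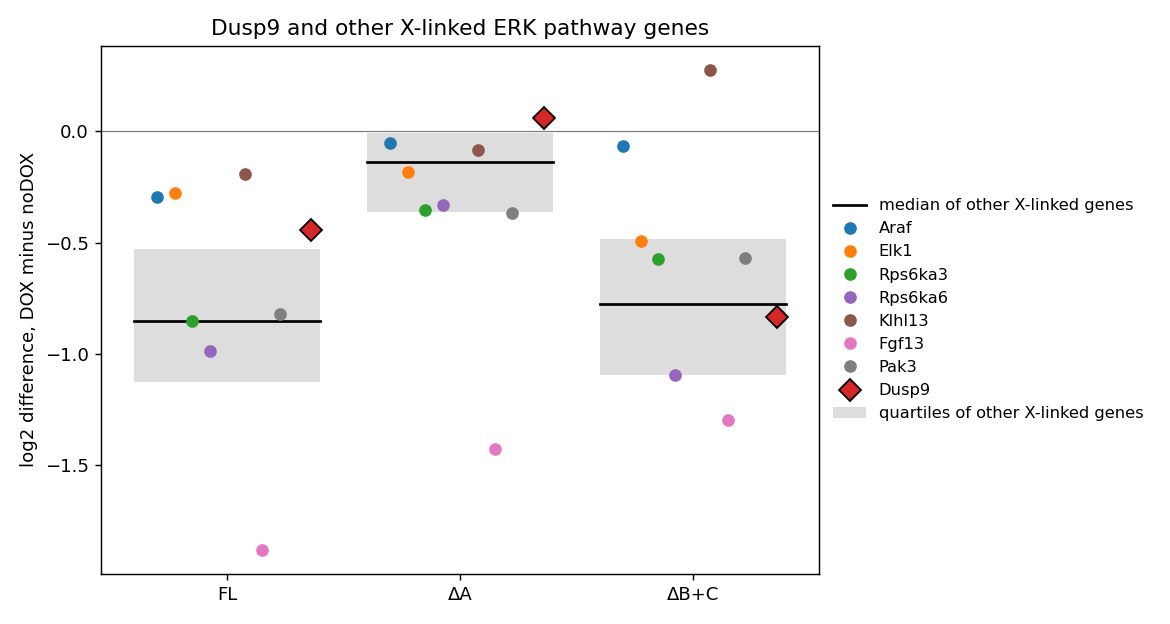
Log2 difference (DOX minus noDOX, fit without the block) of *Dusp9* and of 7 other X‐linked ERK pathway genes in each line; grey boxes span the quartiles of the other 463 tested X‐linked genes and black lines their medians (−0.85, −0.14 and −0.78). *Dusp9* lies above the box in FL and ΔA and near the median in ΔB+C.

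*Dusp6*, the autosomal counterpart of *Dusp9* and an immediate readout of ERK activity, changed little. Its CPM were 171 and 138 in FL noDOX, 146 and 139 in FL DOX, 208 and 189.5 in ΔB+C noDOX and 184 and 160 in ΔB+C DOX. DOX libraries were below noDOX libraries without overlap in ΔB+C only. The log2 (fold change) was −0.12 ± 0.13 in FL (edgeR adjusted p = 0.749) and −0.21 ± 0.13 in ΔB+C (adjusted p = 0.449). With the block it was called in ΔB+C (−0.21 ± 0.07, edgeR adjusted p = 0.0483) and in the mean (−0.16 ± 0.05, adjusted p = 0.0236), and the ΔB+C call held in 2 of 12 leave‐outs and that of the mean in 9.

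The Sprouty and SPRED inhibitors went different ways. *Spry4* had 69.7 and 69.3 CPM in FL noDOX, 66.1 and 68.8 CPM with DOX, 79.5 and 74.1 CPM in ΔB+C noDOX and 58.0 and 55.8 CPM with DOX. The 2 ΔB+C groups were far apart compared with the spread within each, whereas the FL groups nearly touched. *Spry4* fell in ΔB+C (log2 −0.43 ± 0.08, edgeR adjusted p = 0.023) and in the mean of both lines (−0.24 ± 0.05, adjusted p = 0.025), with −0.04 ± 0.08 in FL (adjusted p = 0.848). The mean was called in 6 of 12 leave‐outs, and not without the filter on low counts (adjusted p = 0.0564). The ΔB+C call was lost without ΔB+C noDOX replicate 1, noDOX replicate 2 or DOX replicate 2, with log2 values of −0.49 to −0.38, and with the block it held in all 12 leave‐outs. When the 4 ΔB+C libraries were fitted alone, its adjusted p was 0.306.

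*Spred1*, which encodes a membrane protein that blocks activation of RAF, had 67.8 and 53.7 CPM in FL noDOX and 84.9 and 78.8 CPM in FL DOX, and 83.7 and 68.1 CPM in ΔB+C noDOX and 99.5 and 92.4 CPM in ΔB+C DOX. In both lines each DOX library was above each noDOX library. *Spred1* rose in the mean (log2 0.38 ± 0.10, edgeR adjusted p = 0.0359), and with the block in each line as well (0.43 ± 0.11 in FL, adjusted p = 0.0248, and 0.34 ± 0.11 in ΔB+C, adjusted p = 0.0444). The call of the mean held in 4 of 12 leave‐outs without the block (log2 0.30 to 0.47) and in 12 of 12 with it. *Spry2*, a second Sprouty inhibitor of receptor signalling, ranged from 53.0 to 90.8 CPM over the libraries, and only its blocked mean was called (log2 0.21 ± 0.06, edgeR adjusted p = 0.0232, in 6 of 12 leave‐outs).

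Of the ETS factors, *Etv4* changed more than *Etv5*. *Etv4* had 123 and 87.6 CPM in FL noDOX and 162 and 145 CPM in FL DOX, 134 and 103 CPM in ΔB+C noDOX and 148 and 162 CPM in ΔB+C DOX, and 102 and 87.9 CPM in ΔA noDOX and 109.9 and 102 CPM in ΔA DOX. DOX libraries were the higher in all 3 lines without overlap, but in ΔA the groups nearly touched, at 102.2 CPM without and 102.4 CPM with DOX. *Etv4* rose in the mean (log2 0.47 ± 0.12, edgeR adjusted p = 0.044), and with the block in FL (0.56 ± 0.12, adjusted p = 0.014) and ΔB+C (0.41 ± 0.12, adjusted p = 0.0362), while ΔA had 0.16 ± 0.18 (adjusted p = 1). The mean was called in 2 of 12 leave‐outs without the block (log2 0.35 to 0.60) and in 12 of 12 with it. The other 1112 tested genes of chromosome 11 had a median of 0.10 in the same mean, with an upper quartile of 0.28. For the other autosomal members the median over their own chromosome lay between −0.02 and 0.04. *Etv5*, the most abundant member, lay between 331 and 395 CPM in all libraries and was not called in any DOX comparison (log2 0.11 ± 0.09 in both FL and ΔB+C).

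The immediate early genes were the members of lowest level. *Egr1*, a zinc finger factor induced within minutes of ERK activation, had 35.1 and 28.9 CPM in FL noDOX and 24.2 and 22.8 CPM in FL DOX, and 26.4 and 18.7 CPM in ΔB+C noDOX and 15.5 and 14.6 CPM in ΔB+C DOX. The DOX libraries were lower without overlap in both lines. The log2 (fold change) was −0.45 ± 0.36 and −0.58 ± 0.36 (edgeR adjusted p = 0.644 and 0.432), and only the blocked mean was called (−0.49 ± 0.16, adjusted p = 0.0454, in 5 of 12 leave‐outs with log2 −0.62 to −0.38). *Fos*, the AP‐1 component, lay between 1.65 and 4.90 CPM, its groups overlapped in every line, and its difference was −0.45 ± 0.51 in FL and 0.15 ± 0.51 in ΔB+C.

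*Fgf4*, the ligand, had the largest positive differences among the members in FL and ΔB+C. It had 65.4 and 59.1 CPM in FL noDOX and 102 and 113 CPM in FL DOX, 59.3 and 81.0 CPM in ΔB+C noDOX and 78.5 and 127 CPM in ΔB+C DOX, and 105 and 154 CPM in ΔA noDOX and 97.6 and 165 CPM in ΔA DOX. The FL groups were well apart, the ΔB+C groups overlapped, with replicate 2 above replicate 1 under both treatments, and the ΔA groups overlapped. The log2 (fold change) was 0.79 ± 0.31 in FL (edgeR adjusted p = 0.296), 0.55 ± 0.31 in ΔB+C (adjusted p = 0.379) and 0.67 ± 0.22 in the mean (adjusted p = 0.0811). *Fgf4* rose in the mean with the block (0.65 ± 0.15, edgeR adjusted p = 0.0124), a call that 11 of 12 leave‐outs kept and that was lost without the low input library, ΔB+C DOX replicate 2.

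Set side by side within pairs of the same replicate number, *Dusp9* and the autosomal members kept their own directions. The DOX minus noDOX difference in log2 CPM of *Dusp9* was −0.52 and −0.38 in the FL pairs, −1.03 and −0.70 in the ΔB+C pairs and 0.10 and 0.04 in the ΔA pairs. The mean over the 9 autosomal members was 0.09 and 0.14 in FL, −0.03 and 0.13 in ΔB+C and −0.02 and 0.07 in ΔA, so it stayed near 0 in all 6 pairs. In all 4 pairs of FL and ΔB+C, *Spry2*, *Spred1*, *Etv4*, *Etv5* and *Fgf4* were higher with DOX and *Spry4* and *Egr1* lower, as *Dusp9* was. *Dusp6* was lower in 3 of the 4, and *Fos* was lower in FL and higher in ΔB+C. The pair with the lowest *Dusp9* difference, ΔB+C replicate 1, was also lowest of the 4 for *Etv4* (0.14), *Spred1* (0.25) and *Fgf4* (0.40). The same held for *Spry2* (0.11), *Spry4* (−0.46) and *Egr1* (−0.77). It did not hold for *Dusp6*, *Etv5* and *Fos*, and the order of the pairs was not tested. A rise of all autosomal members beside the lower *Dusp9* was not seen in these transcript levels, and neither was a fall of all. ERK activity was not measured.

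**Figure D4:**
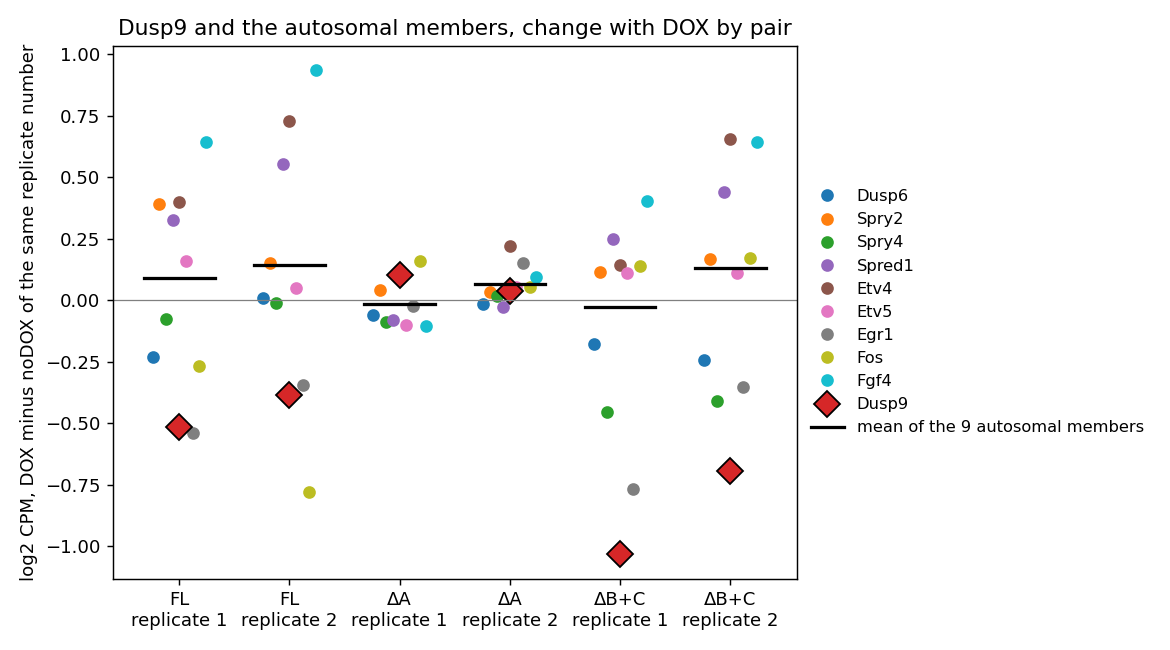
DOX minus noDOX difference in log2 CPM within each of the 6 pairs of libraries with the same replicate number; red diamonds are *Dusp9*, coloured points the 9 autosomal members and black bars their mean. In FL and ΔB+C the autosomal members fan out on both sides of 0 and *Dusp9* lies at or near the bottom, whereas in ΔA they gather around 0.

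Some markers of other cell states moved with DOX in the same libraries. The share of all tested genes called was 1.24% in FL, 2.94% in ΔB+C and 11.1% in the mean. In the mean with the block it was 35.9%. Of 5 tested mesendoderm markers, which ERK signalling is known to favour, 1 (*Eomes*) fell in FL, in ΔB+C and in the mean, and 4 did in the mean with the block. The summed CPM of 7 mesendoderm markers was 239 to 343 in FL noDOX, 61.5 to 198 in FL DOX, 153 to 280.1 in ΔB+C noDOX, 68.9 to 193 in ΔB+C DOX, and 56.0 to 82.5 and 58.5 to 96.3 in ΔA noDOX and DOX. Of 6 formative epiblast markers *Fgf5* and *Lef1* fell in the mean (edgeR log2 −1.29 and −0.61). With the block *Otx2* was also lower and *Sall2* higher (log2 −0.23 and 0.24). *Dnmt3b* and *Pou3f1* were not called in either fit. For 9 pluripotency markers the median difference in the mean was 0.61 and none was called without the block, while with it *Sox2*, *Zfp42* and *Esrrb* were higher and *Nanog* lower. Primitive endoderm markers summed to 25.4 to 62.2 CPM and fibroblast markers to 20.8 to 84.0 CPM over all libraries. None of either list was called without the block. In the mean with the block 3 of 8 primitive endoderm markers were higher, near the share over all genes. No marker of the 5 lists was at 0 in both libraries of a group, except 1 fibroblast marker, *Postn*, in ΔA DOX. The part of these markers in the member differences was not tested.

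The response to DOX was then compared between lines. No member passed in any of the 4 contrasts without the block: ΔA minus FL and ΔB+C minus FL (0% of all genes in each), ΔB+C minus ΔA (0.205%) and ΔA minus the mean of the others (0.379%). At an unadjusted p below 0.05, edgeR without the block gave 1 member in each contrast, beside 981, 106, 1596 and 1695 of the 13191 genes in the order above. With the block 0 members were called in ΔA minus FL (3.31% of all), 0 in ΔB+C minus FL (0%), 1 in ΔB+C minus ΔA (9.32%) and 0 in ΔA minus the mean (11%). The called member was *Spry4*, whose response was lower in ΔB+C than in ΔA by a log2 difference of −0.40 ± 0.09 (edgeR adjusted p = 0.0256; 0.189 without the block), and 5 of 12 leave‐outs kept the call. For *Dusp9*, ΔA minus the mean of the others was 0.70 (95% interval −0.49 to 1.88, edgeR adjusted p = 0.649) without the block and 0.73 (0.05 to 1.41, adjusted p = 0.152) with it.

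Untreated lines differed in several members, most of all between ΔA and the others. Without the block 2 members were called in ΔA minus FL noDOX (9.84% of all genes), 0 in ΔB+C minus FL (0.0227%; at an unadjusted p below 0.05 in edgeR, 3 members and 771 genes) and 1 in ΔB+C minus ΔA (6.69%). With the block there were 6 (33.4% of all), 1 (0.993%) and 3 (27.9%). These comparisons share noDOX libraries, and line and clone cannot be told apart.

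*Spry4* had 131 and 127 CPM in ΔA noDOX against 69.7 and 69.3 CPM in FL noDOX, the widest gap between lines relative to the spread. It was higher in ΔA by a log2 difference of 0.90 ± 0.08 (edgeR adjusted p = 3e-04), and lower in ΔB+C than in ΔA (−0.75 ± 0.08, adjusted p = 0.000861), and both calls held in 12 of 12 leave‐outs. *Spred1* was higher in ΔA as well (90.6 and 96.2 against 67.8 and 53.7 CPM; log2 0.62 ± 0.14, edgeR adjusted p = 0.0243), in 9 of 12 leave‐outs. *Fgf4* was higher in ΔA than in FL with the block (log2 1.01 ± 0.21, edgeR adjusted p = 0.00899; 0.0621 without it), as were *Dusp9* (0.81 ± 0.24, adjusted p = 0.0374) and *Dusp6* (0.30 ± 0.07, adjusted p = 0.00697), while *Egr1* was lower (−0.85 ± 0.23, adjusted p = 0.0222). The *Dusp9* call was lost without FL noDOX replicate 2, ΔA noDOX replicate 2 or either ΔB+C DOX library, with log2 values of 0.50 to 1.09. By group mean without DOX, ΔA had the most *Dusp9*, *Spry2*, *Spry4*, *Spred1*, *Etv5* and *Fgf4* of the lines. It had the least *Etv4*, *Egr1* and *Fos*, and the lowest mesendoderm marker sum. For *Etv4* the log2 difference from FL was −0.145 without the block. The other 1112 tested genes of chromosome 11 had a median of −0.347 in this comparison, and 75.3% of them lay below *Etv4*. The lead of ΔA in *Dusp9* over ΔB+C came from replicate 2, since replicate 1 had 163 CPM in ΔA and 163.6 CPM in ΔB+C. With the block *Dusp6* was higher in ΔB+C than in FL (log2 0.37 ± 0.07, edgeR adjusted p = 0.0338, in 4 of 12 leave‐outs), and *Spry2* and *Fgf4* were lower in ΔB+C than in ΔA (−0.49 ± 0.09 and −0.88 ± 0.21, adjusted p = 0.00227 and 0.0186).

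Several members also differed by replicate number. In the blocked fit 7 members differed between replicates 2 and 1 over all groups, beside 46.3% of all tested genes. *Dusp9* was higher in replicate 2 (log2 0.66 ± 0.14, edgeR adjusted p = 0.00783), as were *Fgf4* (0.41 ± 0.12, adjusted p = 0.026) and *Spry2* (0.20 ± 0.05, adjusted p = 0.00911). *Fos* (−0.75 ± 0.16, edgeR adjusted p = 0.00302), *Egr1* (−0.48 ± 0.14, adjusted p = 0.0201), *Dusp6* (−0.19 ± 0.04, adjusted p = 0.00269) and *Etv4* (−0.20 ± 0.07, adjusted p = 0.0363) were lower. *Spry4*, *Spred1* and *Etv5* did not pass. The fit takes a common replicate difference for all groups, but single groups departed from it. *Dusp9* had 127 and 153 CPM in FL noDOX replicates 1 and 2, against 163 and 359.9 CPM in ΔA noDOX. The sign was the opposite for *Fgf4* in FL noDOX (65.4 and 59.1 CPM) and for *Spry2* in FL DOX (88.8 and 85.3 CPM). It was also the opposite for *Etv4* in ΔB+C DOX (148 and 162 CPM). The calls of *Etv4* and *Fgf4* each held in 4 of 12 leave‐outs and that of *Egr1* in 10. *Dusp9* and *Fgf4* had the same sign between replicates and between ΔA and FL, and opposite signs under DOX in FL and ΔB+C. All 5 tested mesendoderm markers were lower in replicate 2 and 6 of 9 pluripotency markers higher, and their part in the member differences was not tested.

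**Figure D5:**
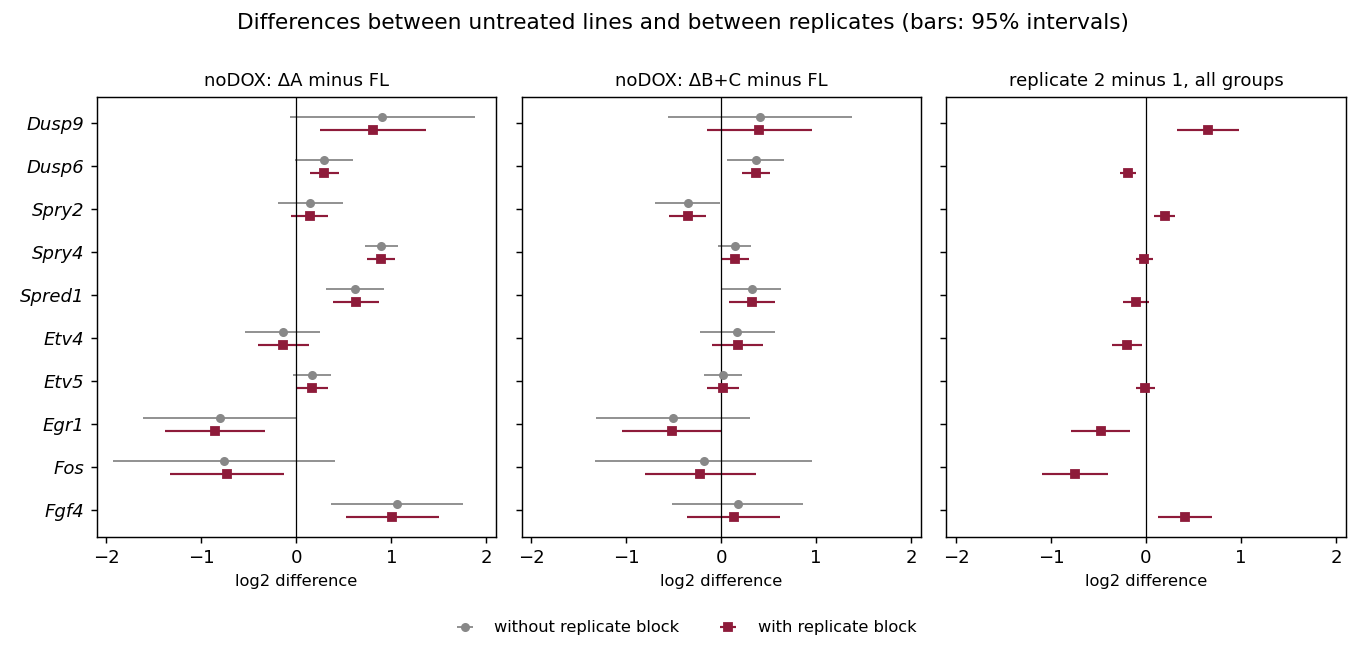
Log2 differences with 95% intervals of each member between untreated lines (ΔA minus FL, ΔB+C minus FL) and between replicates 2 and 1, without (grey circles) and with (red squares) the replicate block; the replicate contrast exists only with the block. *Spry4* stands at 0.90 in ΔA minus FL and near 0 between replicates, whereas *Dusp9* and *Fgf4* are positive in both.

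Further genes of the pathway were counted from lists, here for the mean DOX response of FL and ΔB+C, in which 11.1% of all tested genes were called without the block and 35.9% with it. Of 15 tested FGF ligands, receptors and adaptors 2 rose, the receptor genes *Fgfr2* (log2 0.90 ± 0.14, edgeR adjusted p = 0.00519) and *Fgfr4* (0.99 ± 0.24, adjusted p = 0.0316), and 3 fell, the ligand genes *Fgf5* (−1.29 ± 0.22, adjusted p = 0.00873) and *Fgf15* (−0.57 ± 0.15, adjusted p = 0.0445) and *Ptpn11* (−0.31 ± 0.08, adjusted p = 0.0381), which encodes the phosphatase SHP2 that passes receptor signals to RAS. With the block 3 of this list were higher and 5 lower. *Fgfr2* went from 14.2 and 11.3 CPM to 23.9 and 19.9 CPM in FL and from 12.2 and 13.2 CPM to 26.2 and 25.03 CPM in ΔB+C. None of the 16 autosomal genes of the RAS‐RAF‐MEK‐ERK cascade was called without the block (4 lower and 1 higher with it), and the smallest p was that of *Hras* (log2 −0.18, edgeR adjusted p = 0.0826). None of 14 other phosphatase and feedback genes was called either (1 each way with the block), led by *Spred2* (log2 0.36, edgeR adjusted p = 0.0741) and *Dusp7* (−0.33, adjusted p = 0.149). Of 21 other immediate early and ERK target genes *Egr3* fell (log2 −1.43 ± 0.39, edgeR adjusted p = 0.0476), and with the block 1 was higher and 3 lower. *Egr3* was near the floor, between 0.35 and 3.09 CPM over all libraries, with 0.58 and 0.35 CPM in ΔB+C DOX. Median log2 differences of these 4 lists were −0.03, −0.06, −0.02 and 0.06, close to the −0.01 of all tested genes. That of the 7 X‐linked genes was −0.70, beside −0.815 for all tested X‐linked genes other than *Dusp9* and *Xist*.

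Over the 12 libraries, among 10543 tested genes outside the members with a mean of at least 5 CPM, those most like *Dusp9* in log2 CPM were *Zfp423* (Pearson r = 0.96), *Evc* (0.96), *Syn1* (0.95), *Zfp764* (0.95) and *Focad* (0.95), of which only *Syn1* is X‐linked. Those most like the mean standardised profile of the 9 autosomal members were *Enc1* (0.93), *Cth* (0.93), *Pacsin2* (0.91), *B4galt1* (0.90) and *Spr* (0.90). The libraries share lines, replicate numbers and treatments, so these values describe likeness across the whole set.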

How the data were processed

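RNA‐seq was done in 12 libraries, 2 for each of 6 groups taken from the labels. The authors aligned reads to mm10 with TopHat 2.1.0 and deposited raw counts per RefSeq gene from featureCounts 1.5.1. Each count table held 24627 genes. Some noDOX replicate 1 tables carried DOX in their names, and the labels were followed.

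Counts were analysed in R 4.3.3 with edgeR 4.0.16, using a quasi‐likelihood fit of all 6 groups with Benjamini‐Hochberg adjustment over 13191 genes, after a filter of at least 1 CPM in at least 6 libraries. TMM factors came from expressed autosomal genes (0.978 to 1.02), and the threshold was an adjusted p of 0.05. The replicate number entered as a block in a further fit, since same‐numbered libraries deviated together in all 15 group pairs (r 0.399 to 0.82), although the labels do not say what a number marks. DESeq2 1.42.0, limma‐voom (limma 3.58.1), other scalings, no filter, each line alone and leaving out each library were tried, and leaving out libraries in the blocked fit was chosen after seeing the data. The fits were tested on simulated data. Replicates were not duplicates. Exon lengths and positions came from GENCODE vM21 (mm10). The members and gene lists were chosen with earlier results of these data known. The text names all 10 members and, from each pathway list, genes past the threshold in the comparison described, or the genes with the smallest p where none passed. A further gene under this rule is not reported here.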

Additional observations from a re-analysis of the deposited data

Results flagged for a closer look

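The response of *Spry4* to DOX differed between ΔB+C and ΔA, by a test of the difference itself. ΔB+C minus ΔA gave a log2 difference of −0.40, past the threshold with the replicate block (edgeR adjusted p = 0.0256) and not without it (adjusted p = 0.189). With the block 9.32% of all tested genes were called in this contrast. ΔB+C minus FL gave −0.39 and was not called in either fit. *Spry4* was lower with DOX in both ΔB+C pairs, by −0.46 and −0.41. Its difference was close to 0 in the ΔA pairs, at −0.09 and 0.02, and in the FL pairs, at −0.08 and −0.01. Untreated ΔA started from 131 and 127 CPM and ΔB+C from 79.5 and 74.1 CPM. Its cause was not tested.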

How the results depend on the processing

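Having 2 libraries per group and the replicate number were the main limits. With the replicate block the number of members called was 2 in FL, 5 in ΔB+C, 8 in the mean of both, 1 in the response of ΔB+C minus ΔA, and 6, 1 and 3 in noDOX ΔA minus FL, ΔB+C minus FL and ΔB+C minus ΔA, and it changed no other count of members. The 4 ΔB+C libraries alone gave 0 members. DESeq2 called 1 member in the response of ΔB+C minus ΔA and 3 in noDOX ΔB+C minus ΔA, and it also called *Fgf4* in the mean (adjusted p = 0.0164) and in noDOX ΔA minus FL (0.00633). Without the filter on low counts *Spry4* in the mean (0.0564) and *Fgf4* between replicates (0.0656) were no longer called. In ΔA, *Fgf4* turned to −0.006 with limma‐voom and −0.027 with library totals alone, which also gave −0.006 for *Spry2* and −0.005 for *Egr1*. The cause was not tested.

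Over all tested genes, the calls in the DOX comparisons of FL, ΔA, ΔB+C and the mean numbered 163, 1, 388 and 1462, and became 575, 4, 1095 and 2310 with DESeq2 and 1827, 3, 2887 and 4733 with the block, and 1 for FL and 1 for ΔB+C with the line alone. Response differences of ΔA minus FL, ΔB+C minus ΔA and ΔA minus the mean had 0, 27 and 50 calls, against 140, 394 and 440 with DESeq2 and 436, 1230 and 1454 with the block. No filter gave 5 and 45 for the first 2 of these, and library totals 13 for the second. For ΔB+C minus FL the response had 0 calls in edgeR with and without the block. The noDOX comparisons ΔA minus FL, ΔB+C minus FL and ΔB+C minus ΔA had 1298, 3 and 882, against 2153, 63 and 1627 with DESeq2 and 4403, 131 and 3686 with the block, and the second had 0 with TMM from all genes or no filter. Leaving out 1 library moved these counts to 4 to 231 in FL, 47 to 333 in ΔB+C, 516 to 1929 in the mean, 0 to 12 and 0 to 96 in the responses of ΔB+C minus ΔA and ΔA minus the mean, and 257 to 1486, 0 and 181 to 996 in the noDOX comparisons. In the blocked fit they were 378 to 2313 in FL, 1 to 3 in ΔA, 766 to 2787 in ΔB+C, 3024 to 4928 in the mean, 87 to 632, 182 to 1386 and 356 to 1933 in the responses, and 2470 to 4734, 10 to 313 and 1725 to 4104 in the noDOX comparisons.

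Leaving out each library in turn gave 0 to 1 members called in ΔB+C, 0 to 2 in the mean, 1 to 3 in noDOX ΔA minus FL and 4 to 6 between replicates, and in the blocked fit 0 to 3 in FL, 1 to 6 in ΔB+C, 4 to 8 in the mean, 0 to 2 in the responses of ΔA minus FL and of ΔA minus the mean, 0 to 1 in that of ΔB+C minus ΔA, and 3 to 7, 0 to 1 and 2 to 5 in noDOX ΔA minus FL, ΔB+C minus FL and ΔB+C minus ΔA. A lone library in a group was taken to vary like the other groups. Differences that changed sign over these leave‐outs were all of members not called there. In FL they spanned −0.268 to 0.041 for *Dusp6* and −1.162 to 0.033 for *Fos*. In ΔA they spanned −0.572 to 0.74 for *Dusp9*, −0.153 to 0.083 for *Dusp6*, −0.12 to 0.205 for *Spry2*, −0.118 to 0.015 for *Spred1*, −0.112 to 0.069 for *Etv5*, −0.475 to 0.66 for *Egr1*, −0.005 to 0.215 for *Fos* and −0.403 to 0.346 for *Fgf4*. *Fos* spanned −0.496 to 0.82 in ΔB+C and −0.505 to 0.185 in the mean, and *Dusp9* −0.126 to 1.182 in the response of ΔA minus FL. Between replicates *Spry4* spanned −0.034 to 0.001 and *Etv5* −0.049 to 0.023.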
